A study of Mus musculus with 17 samples.

Results

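Guanylate-binding proteins (GBPs) and immunity-related GTPases (IRGs) are large GTPases of the interferon response. The 10 genes described here, Gbp2, Gbp3, Gbp4, Gbp5, Gbp6, Gbp7, Gbp8, Gbp9, Irgm1 and Igtp, were chosen by gene symbol from the 23719 entries of a colon RNA-seq count table, and the family was picked because Gbp5 was clearly lower in GWI colons. All 10 were in the table, and all 10 passed the filter on low counts, as did 14146 entries in all. The comparison of GWI with control colons therefore chose the members. Their values and calls in that comparison are given as a description, and no conclusion is drawn from them.

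The study modelled Gulf War Illness (GWI) in male C57BL/6 mice aged 32 to 34 weeks. GWI mice received pyridostigmine bromide, an inhibitor of acetylcholinesterase, at 2 mg/kg in the drinking water for 7 days and then recovered for 21 days. Control mice of the same strain, sex and age drank water without it. Whole colon tissue was taken at day 30 from 9 control and 8 GWI mice, with 1 library per mouse. Total counts ran from 16744096 to 20741212 in control and from 16293537 to 18389686 in GWI colons.

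Interferon gamma is the classical inducer of both families, and type I interferons induce many of the same genes. GBPs assemble as coats on bacteria and on vacuoles that hold pathogens, and help caspases reach bacterial lipopolysaccharide. IRGs act on the same vacuoles, and the members with a GMS sequence in the P-loop, Irgm1 and Igtp among them, keep the other IRGs off the membranes of the cell itself. In the gut both families are expressed in epithelial cells, macrophages and other cells.

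Libraries differed in ways that bear on every value below. In control replicate 9 the 10 most abundant genes took 23.1% of all counts, and its scaling factor was 0.799. Control replicate 1 had a second principal component of 18.3, among the GWI colons, which ran from 7.48 to 35.3, while the other 8 controls were below 0. Levels are given as CPM, counts relative to the library size after scaling by the trimmed mean of M values (TMM).

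Gbp5, which promotes inflammasome assembly, lay at 3.13 CPM in the lowest control colon, 3.55 at the median and 6.29 in the highest. In GWI colons it lay at 1.41 CPM in the lowest, 1.73 at the median and 2.73 in the highest. All 8 GWI colons were below all 9 controls, control replicate 6 was the highest control and GWI replicate 8 the highest GWI colon. The raw counts were small, from 51 to 142 in control and from 26 to 46 in GWI colons. The log2 fold change was -1.17 ± 0.18 (SE), with means of 4.14 ± 1.11 CPM (SD, n = 9) and 1.84 ± 0.430 CPM (SD, n = 8). Of the 14146 genes tested, 74 (0.523%) had every GWI colon below every control, and nothing is read from the presence of Gbp5 among them, since that contrast chose it. In this bulk tissue, fewer cells that express a gene and less RNA per cell cannot be told apart.

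Gbp2, which gathers on vacuoles and bacteria after interferon gamma, ran from 14.1 CPM through a median of 17.4 to 31.0 CPM in control colons. In GWI colons it ran from 9.11 CPM through a median of 11.4 to 18.5 CPM. The groups overlapped: 6 of the 8 GWI colons were below every control, control replicate 6 was again the highest and GWI replicate 8 lay within the control range. Its log2 fold change was -0.66 ± 0.18 (SE), but -0.275 with a score of muscle minus epithelium markers as a covariate.

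Gbp3 lay between 9.51 and 19.3 CPM in control colons, with a median of 11.9 CPM. In GWI colons it lay between 5.45 and 15.2 CPM, with a median of 6.35 CPM. GWI replicate 8, at 15.2 CPM, stood apart from the other GWI colons, and 6 of 8 GWI colons were below every control. The log2 fold change of Gbp3 was -0.76 ± 0.20 (SE), and -0.97 without GWI replicate 8. With the muscle minus epithelium score as a covariate it was -0.509.

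Gbp7 ran from 11.5 CPM through a median of 14.2 to 20.4 CPM in control and from 7.25 CPM through a median of 8.06 to 15.2 CPM in GWI colons. GWI replicate 8 was the GWI colon inside the control range, and the other 7 were below every control. Its log2 fold change was -0.65 ± 0.15 (SE), but -0.339 with the muscle minus epithelium score as a covariate. Gbp2, Gbp3, Gbp5 and Gbp7 lie on the plus strand of chromosome 3 between 142493978 and 142638008 (GRCm38, GENCODE annotation), with Gbp2b between Gbp3 and Gbp2.

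The other GBP members lie on the minus strand of chromosome 5. Gbp4 ran from 57 to 159 raw counts in control and from 47 to 226 in GWI colons, where GWI replicate 8, at 13.4 CPM, had the highest value of all 17 mice. The groups overlapped over nearly their whole ranges, and the log2 fold change of Gbp4 was -0.16 ± 0.30 (SE), but -0.488 without GWI replicate 8 and -0.001 without control replicate 9. Gbp9 ran from 3.86 to 8.42 CPM in control and from 2.18 to 7.02 CPM in GWI colons. For Gbp9, 4 of 8 GWI colons were below every control, with a log2 fold change of -0.57 ± 0.21 (SE). With the muscle minus epithelium score as a covariate it was -0.286.

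Gbp6 lay between 1.26 CPM in control replicate 1 and 5.79 CPM in control replicate 9, and between 1.64 and 3.02 CPM in GWI colons. All GWI values of Gbp6 were inside the control range, with a log2 fold change of -0.38 ± 0.29 (SE), -0.198 without control replicate 9, -0.213 without control replicate 8, -0.032 with limma-voom and -0.917 with a score of muscle minus epithelium markers as a covariate. Gbp8 ran from 1.25 to 3.37 CPM in control and from 1.45 to 3.09 CPM in GWI colons. The log2 fold change of Gbp8 was 0.03 ± 0.24 (SE), and it moved both ways, from -0.452 with the muscle minus epithelium score as a covariate to 0.188 with a replicate block and 0.270 with limma-voom. Its sign turned negative when control replicates 1, 3, 4 or 6 or GWI replicates 3 or 8 were left out, as low as -0.046, and it rose to 0.136 without control replicate 8 and 0.132 without control replicate 9. At 20 to 65 raw counts in control colons, Gbp8 was the member with the lowest mean CPM there.

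Irgm1, a regulator of other IRGs and of autophagy, ran from 27.3 CPM in control replicate 1 through a median of 43.7 to 90.3 CPM in control replicate 8. In GWI colons it ran from 31.3 CPM through a median of 39.7 to 48.5 CPM. The GWI colons lay inside the control range and were closer together, with an SD of 5.63 CPM (n = 8) against 19.3 CPM (n = 9). The control SD includes control replicate 8, and the next highest control lay at 65.4 CPM. The log2 fold change of Irgm1 was -0.29 ± 0.19 (SE), -0.127 without control replicate 8, -0.049 with limma-voom and -0.700 with the muscle minus epithelium score as a covariate.

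Igtp, also called Irgm3, ran from 10.7 CPM through a median of 12.5 to 20.1 CPM in control colons. In GWI colons it ran from 6.59 CPM through a median of 8.78 to 13.6 CPM. Of the GWI colons, 6 of 8 were below every control, and control replicate 8 stood apart as the highest. Its log2 fold change was -0.53 ± 0.16 (SE).

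At an adjusted p under 0.05 in edgeR's quasi-likelihood test, 5 of the 10 members were called lower, Gbp2, Gbp3, Gbp5, Gbp7 and Igtp. With the muscle minus epithelium score as a covariate Gbp2, Gbp3 and Gbp7 were not called, and Gbp6 and Irgm1 were. That score itself differed between the groups, as given below, so these calls are not free of the condition. Of all genes tested, 1903 (13.5%) were called lower, 1889 (13.4%) higher and 3792 (26.8%) in either direction, and nothing is read from the members' count beside these, since the contrast chose them. The median log2 fold change was -0.55 over the members and -0.06 over all genes tested.

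**Figure D1:**
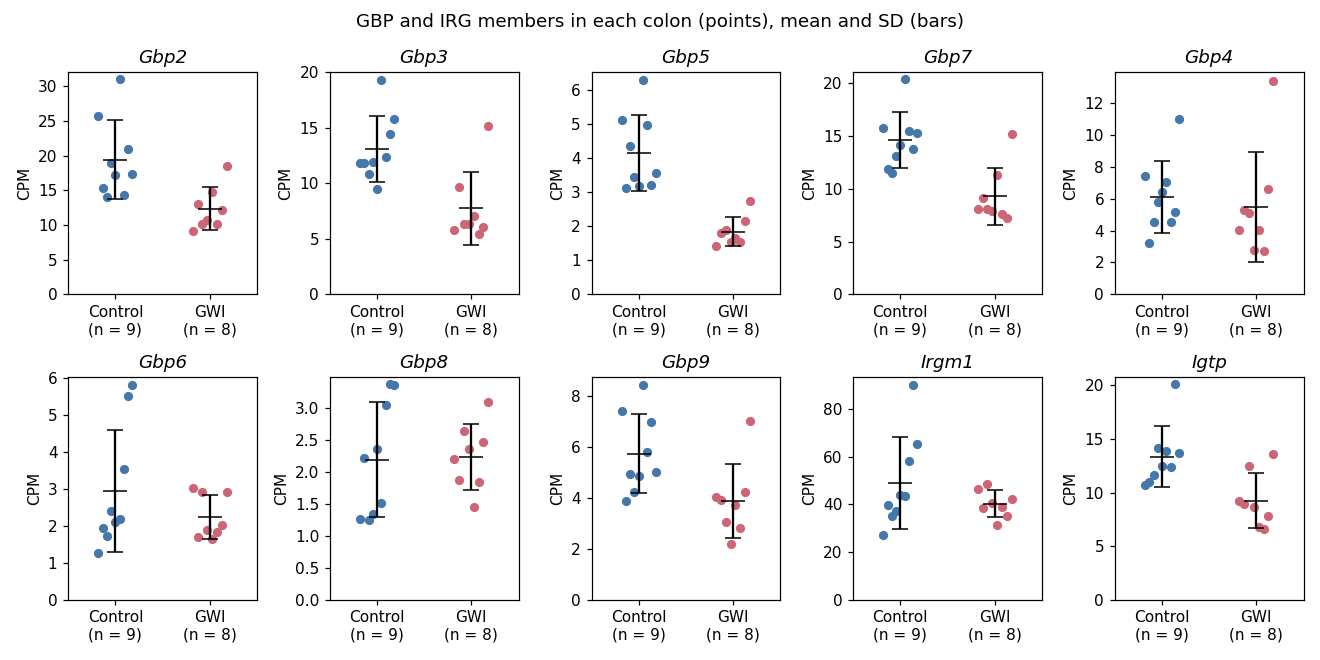
CPM of each member in every colon, with 9 control and 8 GWI points per panel and bars for the mean and SD. Gbp5 is the member with no overlap between the groups, and GWI replicate 8 gives the highest GWI point of Gbp3, at 15.2 CPM, and of Gbp4, at 13.4 CPM.

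Compared per kilobase of exon (CPM per kb, GENCODE union exons), Irgm1 had the highest level in control colons, 8.44 ± 3.33 (SD, n = 9). Gbp2 followed at 7.72 ± 2.25 CPM per kb and Igtp at 6.60 ± 1.40, and these top levels did not differ beyond their spread. Gbp3 at 4.00 ± 0.909 and Gbp7 at 2.60 ± 0.473 CPM per kb came next, with Gbp3 just beyond the spread of Gbp7. Gbp9 at 1.11 ± 0.299, Gbp4 at 0.818 ± 0.302, Gbp8 at 0.635 ± 0.260, Gbp5 at 0.624 ± 0.168 and Gbp6 at 0.493 ± 0.278 CPM per kb formed a low group in which no gene differed from its neighbour beyond the spread. In GWI colons the order of levels was the same except at its end, where Gbp5, at 0.277 ± 0.0649 CPM per kb (SD, n = 8), lay below Gbp6 at 0.376 ± 0.0999. Levels of Gbp6 depend most on how reads were assigned, because 59.1% of the 150-base stretches of its transcripts also occur in transcripts of other genes, Gbp10 and Gm43302. For Gbp7 that share was 8.77%, with Gm43802 inside the locus, for Igtp 0.739%, with Irgm2, and for Gbp4 0.0254%. Gbp2, Gbp3, Gbp5, Gbp8, Gbp9 and Irgm1 shared no such stretch with another gene. Exons of Gbp4, Gbp8 and Gbp9 overlap over 60 or 61 bases on the same strand, and Igtp and Irgm2 share 162 exon bases, so that counts of these genes carry that uncertainty.

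With the group means removed, the members varied together in a pattern that followed position only in part. The 6 pairs among Gbp2, Gbp3, Gbp5 and Gbp7 had Pearson r from 0.58 to 0.82 over the 17 mice (log2 CPM residuals, median 0.67). Gbp4 and Gbp9 varied with the genes of chromosome 3, with r from 0.55 to 0.74. Gbp6 and Gbp8 did not, with r from -0.18 to 0.29 against the chromosome 3 genes, and varied instead with Irgm1 and Igtp, with r from 0.56 to 0.93. These values describe 17 libraries that share differences in tissue makeup and depth, and no p is given. Control replicate 6 was the highest control for Gbp2, Gbp3, Gbp5, Gbp7 and Gbp9, control replicate 8 for Irgm1, Igtp and Gbp8, and control replicate 9 for Gbp4 and Gbp6. The part of single colons in these r values was not tested.

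**Figure D2:**
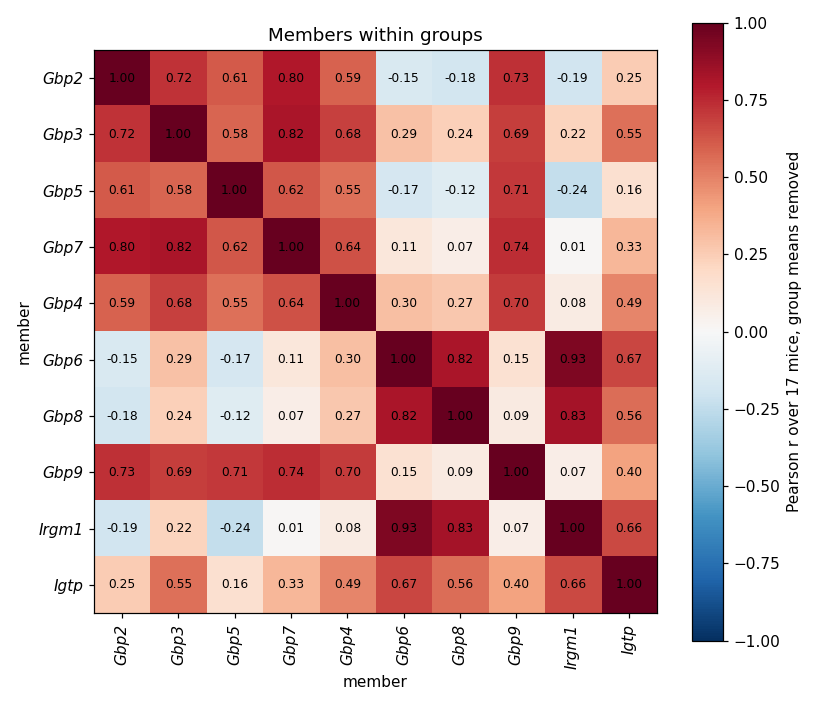
Pearson r between members over 17 mice, from log2 CPM with each group's mean removed, with members on both axes. Gbp2, Gbp3, Gbp5 and Gbp7 have r of 0.58 or more with each other, and Gbp6 and Gbp8 have r of 0.56 or more with Irgm1 and Igtp.

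Among the 13942 tested genes outside the gene lists used here, the 5 with the highest r with Gbp5 within groups were Phldb2 (0.76), Zfp641 (0.76), Tnfaip2 (0.76), Setd7 (0.75) and Fgf2 (0.75). Zfp641 had 3.55 ± 1.34 CPM (SD, n = 9) in control and 1.68 ± 0.449 CPM (SD, n = 8) in GWI colons, a log2 fold change of -1.08 ± 0.22 (SE, adjusted p = 0.00331 in edgeR's quasi-likelihood test). Setd7 had 79.5 ± 22.2 CPM (SD, n = 9) and 86.5 ± 13.3 CPM (SD, n = 8), with a log2 fold change of 0.12 ± 0.14 (SE, adjusted p = 0.541 in edgeR's quasi-likelihood test). Phldb2 had a log2 fold change of -0.51 ± 0.16 (SE, adjusted p = 0.0242 in edgeR's quasi-likelihood test), Fgf2 one of -0.69 ± 0.23 (SE, adjusted p = 0.0324 in edgeR's quasi-likelihood test) and Tnfaip2 one of -0.26 ± 0.23 (SE, adjusted p = 0.402 in edgeR's quasi-likelihood test). Of the 5, 3 were called lower and 4 were negative, beside 13.5% and 55.2% of all genes tested.

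Of the other GTPases of the family, 11 were in the table and 8 passed the filter. Of these 8, 1 was called higher and 0 lower, a share of 12.5% beside 26.8% of all genes tested, and their median log2 fold change was -0.23. Irgq, listed here as neither a regulatory nor an effector IRG, rose from 30.2 ± 11.6 CPM (SD, n = 9) to 44.9 ± 6.93 CPM (SD, n = 8). Its log2 fold change was 0.57 ± 0.19 (SE, adjusted p = 0.0372 in edgeR's quasi-likelihood test). Whether Irgq responds to interferon was not tested. Irgm2, the third regulatory IRG, had a log2 fold change of -0.33 ± 0.14 (SE, adjusted p = 0.081 in edgeR's quasi-likelihood test). Iigp1, an effector IRG, ran from 11.3 to 33.5 CPM in control and from 5.28 to 29.1 CPM in GWI colons. GWI replicate 8 was far above the other GWI colons for Iigp1, and control replicate 8 was far above the other controls. The log2 fold change of Iigp1 was -0.64 ± 0.32 (SE, adjusted p = 0.137 in edgeR's quasi-likelihood test). Ifi47 ran from 3.60 to 31.8 CPM in control and from 8.96 to 22.6 CPM in GWI colons, with a log2 fold change of 0.03 ± 0.30 (SE). Tgtp1, Tgtp2, Gbp2b and Gvin1 had log2 fold changes of -0.41, -0.53, -0.14 and 0.02, none called. Tgtp1 and Tgtp2 share 64.9% and 68.4% of their 150-base stretches with other genes, mostly with each other, and Gvin1 96.2%, so that these values are uncertain. Gbp10, Gbp11 and Irgc1 did not pass the filter, with control means of 0.292, 0.435 and 0.305 CPM.

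**Figure D3:**
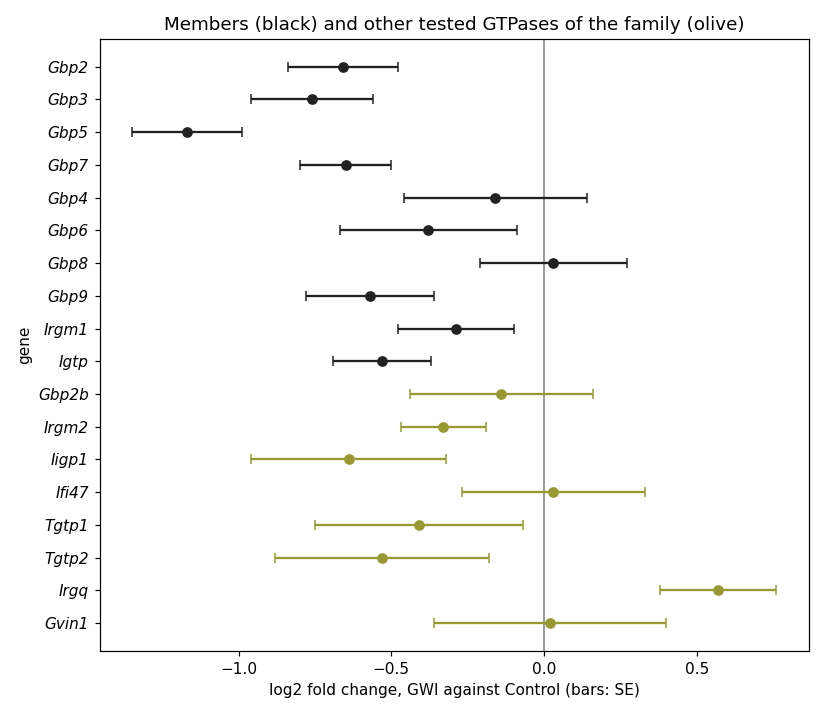
Log2 fold change of GWI against control colons on the horizontal axis, with bars for the SE, for the members (black) and the 8 other tested GTPases of the family (olive), 1 gene per line. Gbp5 lies lowest at -1.17 and Irgq highest at 0.57.

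The ligand Ifng needs a caution before its value. Its counts were 323 to 844 in 8 control colons, with a median of 474, and 9678 in control replicate 9. In GWI colons they were 2377 to 9867, with a median of 7871.5. By raw count control replicate 9 thus lay among the GWI colons, and in CPM, at 675, it lay above all of them, which ran from 141 to 559. Of the 36 digits in the counts of control replicate 9 and the 8 GWI colons, 34 were between 5 and 9, a share of 94.4%. Among the 2011 entries with counts of 4 digits in all 9 of these colons, the median share was 38.9%, and Ifng had the highest, ahead of the next at 83.3%. The GWI mean of Ifng, 424 CPM, was 19.5 times the summed level of 17 markers of T cells and of NK and cytotoxic cells, the main sources of interferon gamma, which was 21.7 CPM. The fitted log2 fold change of Ifng was 2.11 ± 0.73 (SE, adjusted p = 0.0394 in edgeR's quasi-likelihood test). It depends on control replicate 9: the control mean was 98.6 CPM over all 9 colons and 26.6 CPM over the other 8. How these counts arose was not tested, the entry is given as deposited, and it is not used here as a measure of interferon gamma in these colons.

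The genes that act with the ligand were counted with and without Ifng. Of 28 interferon signalling genes, 25 were tested, of which 13 (52.0%) were called higher and 0 lower, beside 13.4% of all genes called higher. Without Ifng these were 12 of 24, with a median log2 fold change of 0.30 beside -0.06 over all genes tested. Socs3, a feedback inhibitor of cytokine receptors, rose from 8.53 ± 2.55 CPM (SD, n = 9) to 14.8 ± 1.67 CPM (SD, n = 8), a log2 fold change of 0.79 ± 0.16 (SE, adjusted p = 0.00241 in edgeR's quasi-likelihood test). Irf1, the transcription factor that drives GBP genes, rose from 115 ± 29.2 CPM (SD, n = 9) to 174 ± 13.1 CPM (SD, n = 8), with a log2 fold change of 0.60 ± 0.13 (SE, adjusted p = 0.0048 in edgeR's quasi-likelihood test). Ifnar1, a chain of the type I interferon receptor, had a log2 fold change of 0.35 ± 0.08 (SE, adjusted p = 0.00651 in edgeR's quasi-likelihood test). With the muscle minus epithelium score as a covariate 4 of the 25 signalling genes were called, in a fit that called 3676 of all 14146 genes. Without GWI replicate 4 the count was 8, in a fit that called 2888 of 14206 genes. Of 13 genes for the induction of interferon gamma, 4 were tested and 0 were called. The smallest adjusted p among these was 0.0535 for Il15 in edgeR's quasi-likelihood test, and the T cell factors Tbx21 and Stat4 were under the filter, at 0.240 and 0.490 CPM in control and 0.188 and 0.438 CPM in GWI colons.

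Of 26 tested interferon gamma targets outside the GTPase family, 6 were called lower and 1 higher, and the list had a median log2 fold change of -0.21. The share called, 26.9%, was near the 26.8% of all genes tested. By direction, 23.1% were called lower, beside 13.5% of all genes, and 1 of 26 higher, beside 13.4% of all genes. H2-Aa, a class II chain, fell from 40.2 ± 23.9 CPM (SD, n = 9) to 17.6 ± 5.18 CPM (SD, n = 8), a log2 fold change of -1.19 ± 0.27 (SE, adjusted p = 0.00592 in edgeR's quasi-likelihood test). H2-Ab1 had a log2 fold change of -0.92 ± 0.25 (SE, adjusted p = 0.0134 in edgeR's quasi-likelihood test), and H2-Eb1 one of -0.76 ± 0.22 (SE, adjusted p = 0.0185 in edgeR's quasi-likelihood test). The others were Cd74, Ciita and Ubd. Control replicate 7, which stood apart for small intestine markers, was the highest control for all these genes but Ubd. Without it the log2 fold change was -0.895 for H2-Aa, -0.728 for H2-Ab1, -0.621 for H2-Eb1 and -0.63 for Cd74, all called, and -0.781 for Ciita, which was not called (adjusted p = 0.0565 in edgeR's quasi-likelihood test). H2-K1, a class I chain, rose by 0.44 ± 0.13 on the log2 scale (SE, adjusted p = 0.0228 in edgeR's quasi-likelihood test). Without control replicate 1 the count of called targets was 11, in a fit that called 4818 of 14080 genes.

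Of 22 type I interferon targets, 2 were called lower and 4 higher, around a median log2 fold change of 0.00. The share called, 27.3%, was again near the 26.8% of all genes. Ifit3b, an RNA-binding antiviral protein, fell from 5.84 ± 1.17 CPM (SD, n = 9) to 2.52 ± 0.863 CPM (SD, n = 8), a log2 fold change of -1.21 ± 0.19 (SE, adjusted p = 0.000673 in edgeR's quasi-likelihood test). Its paralog Ifit3 fell by 1.03 ± 0.18 on the log2 scale (SE, adjusted p = 0.0012 in edgeR's quasi-likelihood test). For both genes all 8 GWI colons were below all 9 controls, as for 74 (0.523%) of all genes tested. Ifih1 and Ddx58, sensors of viral RNA, had log2 fold changes of 0.51 ± 0.14 (SE, adjusted p = 0.0123 in edgeR's quasi-likelihood test) and 0.33 ± 0.11 (SE, adjusted p = 0.0392 in edgeR's quasi-likelihood test). Oas3, which makes the activator of RNase L, had one of 1.16 ± 0.32 (SE, adjusted p = 0.0135 in edgeR's quasi-likelihood test).

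The machinery that places the GTPases on membranes and the inflammasome genes that act with GBPs were also counted. Of 16 GTPase loading genes, 0 were called lower and 3 higher, Rnf213, Traf6 and Optn, a share of 18.8% beside 26.8% of all genes, and the median was -0.03 on the log2 scale. Rnf213, a ubiquitin ligase that coats bacteria, rose by 0.65 ± 0.13 on the log2 scale (SE, adjusted p = 0.0028 in edgeR's quasi-likelihood test). The autophagy genes Atg3, Atg5, Atg7, Atg12 and Atg16l1, which IRGs and GBPs need to reach vacuoles, were not called, with log2 fold changes from -0.28 to -0.02. Of 11 tested inflammasome genes, 4 were called higher, Nlrp1b, Nlrp6, Nlrc4 and Gsdmd, and 1 lower, Ninj1, a share of 45.5% beside 26.8% of all genes. Casp4, the lipopolysaccharide sensor that GBPs serve, ran from 15.8 to 77.6 CPM in control and from 22.5 to 55.8 CPM in GWI colons, with a log2 fold change of -0.12 ± 0.33 (SE).

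Markers of the cell layers of the colon were counted beside 13.5% of all genes called lower and 13.4% called higher. Of 10 smooth muscle markers, 7 were called lower, and their summed level was 12100 ± 6720 CPM (SD, n = 9) in control and 6110 ± 2700 CPM (SD, n = 8) in GWI colons. Among controls the sum ran from 3690 CPM in replicate 9 to 23900 CPM in replicate 6, and among GWI colons from 3660 CPM in replicate 3 to 11800 CPM in replicate 5, with Myh11 the most abundant gene. Of 9 epithelium markers, 3 were called higher and 0 lower, with sums of 12200 ± 2690 CPM (SD, n = 9) and 14900 ± 2010 CPM (SD, n = 8) and Krt8 the most abundant. Of 8 endothelium markers, 3 were called lower, Kdr, Tie1 and Emcn, with sums of 125 ± 45.7 CPM (SD, n = 9) and 87.5 ± 23.3 CPM (SD, n = 8). Control replicate 6, the highest control for the chromosome 3 GBPs, was thus also highest for smooth muscle and for endothelium. The muscle minus epithelium score itself differed between the groups. It was -0.3 ± 0.76 (SD, n = 9) in control and -1.51 ± 0.52 (SD, n = 8) in GWI colons. A fit with this score as a covariate therefore cannot fully separate tissue makeup from the condition. With the muscle minus epithelium score as a covariate, members moved both ways. The log2 fold change was then smaller in size for Gbp2 (-0.275), Gbp7 (-0.339), Gbp3 (-0.509), Gbp5 (-0.825), Gbp9 (-0.286) and Gbp4 (0.003). It was larger in size for Gbp6 (-0.917), Irgm1 (-0.700) and Igtp (-0.627), and Gbp8 turned to -0.452. The members called lower in that fit were Gbp5, Gbp6, Igtp and Irgm1. The part of tissue makeup in the members' values was not otherwise tested.

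The sum of 9 T cell markers was 14.1 ± 4.65 CPM (SD, n = 9) in control and 12.6 ± 4.06 CPM (SD, n = 8) in GWI colons, with Lck the most abundant and 0 of 7 tested markers called. The sum of 8 NK and cytotoxic cell markers was 14.6 ± 7.72 CPM (SD, n = 9) and 9.16 ± 4.36 CPM (SD, n = 8), with Gzma the most abundant, and 0 of 4 tested markers were called. Of 10 macrophage markers, 9 had a negative log2 fold change, beside 55.2% of all genes tested, with a median of -0.35, and Mrc1 was called lower and Mertk higher. The sums were 95.2 ± 9.96 CPM (SD, n = 9) and 97.4 ± 7.79 CPM (SD, n = 8), of which Mertk alone, the most abundant, made 36.4 CPM in control and 53.8 CPM in GWI colons. Of 6 dendritic cell markers 2 were tested, and Itgax was called lower. The sum of 6 B cell markers was 3.91 CPM in control and 2.22 CPM in GWI colons, and that of 4 plasma cell markers 125 and 105 CPM. Neutrophil markers summed to 0.576 to 13.0 CPM in control colons, highest in control replicate 1 and with a median of 1.66, and to 0.698 to 4.85 CPM in GWI colons, with a median of 1.34. Only 1 of 6 B cell, 2 of 4 plasma cell and 1 of 6 neutrophil markers were tested, with 0 called, and no direction is read from these lists. The tissue carried colon markers in every mouse, with a lowest sum of 12700 CPM over 8 genes and Car1 the most abundant. Of 6 pancreas markers, Cpa1 and Amy2b were at 0 in all 17 mice. The sum of 6 small intestine markers ran from 74.0 to 541 CPM in control colons, highest in control replicate 7, and from 76.3 to 125 CPM in GWI colons. Of 6 fibroblast markers, 5 had a negative log2 fold change, beside the same 55.2%, and Dcn was called lower. All 5 adipocyte markers had a positive log2 fold change, with a median of 1.10 and Cidec called higher, and their sums were 87.9 ± 63.8 CPM (SD, n = 9) and 191 ± 154 CPM (SD, n = 8).

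Promoters were read to give the share of members with certain sequence motifs beside the share over all promoters. The promoter table used here, from RefSeq (GRCm38.p6), held 7 sequences for 6 of the 10 members. The promoters of Gbp4, Gbp6, Gbp8 and Gbp9 were not analysed here. The 250 bases upstream of each start were searched for GAAANNGAAA on both strands, the repeat found in interferon-stimulated response elements (ISRE), and for TTCNNNGAA, a palindrome found in gamma-activated sites (GAS). The ISRE-like repeat was in 6 of the 7 member promoters and in 978 (2.98%) of all 32851 promoters of the table. Among the 6 was that of Irgm1, which was not called in the fit without covariates. Its repeats began 30 and 24 bases before the start. The member promoter without the repeat belonged to another start of Gbp3, a gene that was called lower. The GAS-like palindrome was in 3 of the 7, those of Gbp5, Gbp7 and Igtp, and in 2306 (7.02%) of all. Both were in 3 of the 7 and in 109 (0.332%) of all. On chromosome 3 the repeat lay 165 bases before the start in Gbp5, 137 in Gbp2b, 59 in Gbp2, 53 in Gbp7 and 45 in Gbp3. A match is a description of the letters, and no factor was measured on these promoters. The stretches that hold the matches are shown for the members that were called lower, 5′ to 3′ on the gene's strand, with the ISRE-like and GAS-like letters in capitals. They lie on the plus strand at chr3:142496684-142496900 (Gbp5), chr3:142530220-142530302 (Gbp7), chr3:142559989-142560024 (Gbp3), chr3:142620594-142620623 (Gbp2) and chr11:58199501-58199541 (Igtp), upstream of the RefSeq starts.
Gbp5: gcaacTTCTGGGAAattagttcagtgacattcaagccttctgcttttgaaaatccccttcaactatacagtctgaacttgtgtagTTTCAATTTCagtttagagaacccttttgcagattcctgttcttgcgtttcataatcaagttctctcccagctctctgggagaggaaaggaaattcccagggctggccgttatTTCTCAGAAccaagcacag
Gbp7: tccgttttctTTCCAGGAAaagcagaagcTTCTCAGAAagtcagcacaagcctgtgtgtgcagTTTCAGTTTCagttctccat
Gbp3: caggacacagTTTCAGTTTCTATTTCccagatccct
Gbp2: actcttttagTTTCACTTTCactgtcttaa
Igtp: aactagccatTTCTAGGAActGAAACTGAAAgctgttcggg
In the GENCODE annotation the stretch of Gbp2 overlaps exon sequence over 22 bases and that of Gbp5 over 1 base, and the others lie outside exons of their gene. Irgm2, which like Igtp lies on chromosome 11, had both motifs too, as did Tgtp1 and Tgtp2, while the promoters of Irgq and Ifi47 had neither. Of 17 promoters of type I interferon targets, 8 held the ISRE-like repeat, and of 21 promoters of interferon gamma targets, 2 did. The GAS-like palindrome was in 4 of these 17 and in 3 of these 21.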

How the data were processed

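Colon RNA of 17 mice was sequenced as paired reads of 150 bases. The authors trimmed reads with Trimmomatic 0.36, aligned them to GRCm38 with STAR 2.5.2b and counted unique reads per gene, and the deposited table holds raw counts per gene symbol; strand setting and annotation release are not given in the sources used here. Entries stood in alphabetical order except 4: Il4, Il6 and Chat came first, and Ccl6 came before Ccl5; the reason is not given in the sources used here. Here, edgeR 4.0.16 (filterByExpr, TMM, glmQLFit with robust estimates, glmQLFTest, Benjamini-Hochberg over 14146 genes) compared 8 GWI with 9 control colons without covariates. The members and lists were chosen with earlier results of these data known. Named were all members and other family entries, Ifng and Irf1, the called genes with the smallest p in each list, the most abundant or called markers and the 5 genes most like Gbp5; other named genes were chosen after their values were seen. Replicate numbers were treated as names of separate mice; whether mice shared a cage or litter is not given in the sources used here, and all SEs and p-values assume that they were independent. The fit was tested on simulated data for GWI against control (14060 genes). It recovered 40% of 65 genes changed 1.5-fold, 67.2% of 67 changed 2-fold and 89.2% of 65 changed 3-fold. Far fewer genes were changed there than the 3792 called in these colons. The cut on p thus differs, and these shares need not hold for the calls given here. A gene not called may still have changed. Protein comparisons were not run, and some items named by this rule are not reported here. Sequence came from RefSeq, and lengths and positions from GENCODE M21 (GRCm38). R 4.3.3 and Python 3.11.15 were used. Alternatives were other scalings, DESeq2 1.42.0, limma 3.58.1, no filter, a replicate block, a tissue score, another threshold and mice left out.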

Additional observations from a re-analysis of the deposited data

Results flagged for a closer look

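In each group of the 21 family genes, the highest and lowest colon were compared with the nearest other colon by Dixon's gap at the 95% level, 42 groups in all, of which about 5% are passed by chance. GWI replicate 8 stood above the other GWI colons for Gbp3 (15.2 CPM, next 9.63), Gbp4 (13.4 CPM, next 6.63) and Gbp9 (7.02 CPM, next 4.24). The same colon stood apart for Gbp10 (1.25 CPM), Gbp11 (1.19 CPM), Iigp1 (29.1 CPM, next 11.3), Tgtp1 (3.92 CPM) and Tgtp2 (6.42 CPM). Control replicate 8 stood apart for Igtp (20.1 CPM, next 14.2) and Iigp1 (33.5 CPM, next 22.4). Gbp7 was high in control replicate 6 (20.4 CPM, next 15.8). Irgc1 was high in GWI replicate 1 (1.09 CPM) and Irgq in control replicate 1 (55.6 CPM, next 33.8).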

How the results depend on the processing

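Given as a description only, the members called lower numbered 5 with DESeq2 size factors, library size alone, no filter and a replicate block. Those fits called 3818, 3381, 3331 and 2241 of all genes, in that order. With the DESeq2 Wald test (4615 genes called) and limma-voom (8076 genes) the members called lower numbered 6, with Gbp9 added. With the muscle minus epithelium score as a covariate (3676 genes) they numbered 4. Leaving out 1 mouse at a time gave 5 to 6. An unadjusted p under 0.05 with an absolute log2 fold change over 1 left 1 member, Gbp5, and 342 genes, 1 interferon signalling gene, 2 interferon gamma targets and 3 type I interferon targets. limma-voom with quality weights called 8076 genes, 21 interferon signalling genes, 15 interferon gamma targets and 14 type I interferon targets. The residual correlation of mice with the same replicate number ran from -0.506 to 0.115, and no mouse was most like its own number. Whether the numbers pair mice is not given in the sources used here, and these values cannot settle it. The replicate block gave 2241 genes, 7 interferon signalling genes and 4 interferon gamma targets. Called interferon signalling genes were 4 with the muscle minus epithelium score. Leaving out 1 mouse at a time gave 2781 to 4818 genes, 8 to 15 interferon signalling genes and 6 to 11 interferon gamma targets. Further fits were chosen after seeing the data. Leaving out control replicates 6 and 8 gave 4 members, without Igtp, where 3050 of 14134 genes were called. Leaving out control replicates 1 and 9 gave 13 interferon gamma targets, where 5564 of 14161 genes were called. Leaving out the Ifng entry gave 12 interferon signalling genes, where 3790 of 14145 genes were called. The cause of these shifts was not tested. Low raw counts limit what can be read for Gbp5, Gbp6 and Gbp8, with 26 to 46 counts of Gbp5 in GWI colons.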
